A study of Mus musculus with 10 samples.

Results

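Alveolar macrophage identity genes are genes whose transcripts are used to recognise the resident macrophages of the airspaces. The 10 genes described are Marco, Itgax, Siglecf, Pparg, Fabp4, Car4, Cidec, Plet1, Fabp1 and Krt79. Their probes were taken as every probe whose gene name in the scanner files, or whose current symbol through the accession given there, is one of these names. That gave 14 probes of 10 genes, out of 41174 probes of 27670 genes on the array. Plet1 was listed under a clone name and Krt79 under an older identifier.

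Whole lungs of female BALB/c mice, an inbred strain, were profiled on Agilent whole-genome expression arrays. One group of 5 young adult mice breathed the mainstream smoke of research cigarettes, filters removed, in repeated whole-body sessions on several days of each week for 8 weeks, and the other group of 5 stayed in room air for the same 8 weeks. Each lung was hybridised to 1 array. A p-value by group alone measures the spread between arrays, which joins that between mice and that between slides. The number of arrays limits its precision. Homogenised lung holds all cell types together. For a transcript in such bulk tissue, fewer cells of a type and less RNA per cell cannot be told apart.

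Alveolar macrophages settle in the airspace around birth and take up surfactant, particles and microbes. GM-CSF from the alveolar epithelium, with TGF-beta, induces the nuclear receptor PPAR-gamma in them, and PPAR-gamma in turn drives genes of lipid uptake and storage. Several of the identity genes are also active elsewhere in lung: Itgax in dendritic cells, Siglecf in eosinophils, Car4 and Fabp4 in capillary endothelium, and Pparg, Fabp4 and Cidec in adipocytes.

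The labels name a single dye, but the scanner files hold 2 channels. From the signals of Y-linked and lung genes, red was read as the female lung and green as a reference sample with some male RNA. The Y-linked gene Eif2s3y was well above background in red on 0 and in green on 10 of 10 arrays. The Y-linked genes Ddx3y and Kdm5d were well above it in green on 10 arrays, and in red on 2 and 1. By contrast, the surfactant gene Sftpc, well above background in both channels on 10 arrays, was on average 6.39 log2 units brighter in red. A table of processed values that the authors deposited has the groups exchanged against the scanner files: each value equals, within 0.0001, the mean log2 signal of both channels on the same-numbered array of the other group. Directions given below follow the scanner files as they are assigned to samples, so they oppose that table as labelled. Which of the 2 is mislabelled could not be told from the files. The published report on these mice lists Atp6v0d2, Bhlhe41 and Clec5a as raised by smoke, the direction they have by the scanner files. Values are log2 ratios of red over green, after a background correction whose offset of 50 lowers the fold changes of dim probes. No probe's level is set against that of another probe. Room air replicate 1 and smoke replicate 4 stood apart from the other arrays of their groups for several genes, and the differences of the identity genes are given with and without them. Without room air replicate 1, 6 of the 10 identity genes passed the test, and without smoke replicate 4, 5 did, as with all arrays.

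Of the 10 genes, 4 were higher and 1 was lower in smoke-exposed than in room air lungs by limma at an adjusted p under 0.05, and 5 did not pass. Marco, Itgax, Pparg and Plet1 rose and Cidec fell. Over all 27669 genes tested, each by its brightest probe, 8.23% passed, 4.96% as higher and 3.27% as lower. Among the 17159 genes well above background in red on 10 of 10 arrays, as all 10 identity genes were, the shares were 12.9%, 7.77% and 5.16%. The groups did not overlap for 4 of the 10 genes, with smoke higher in 3 and lower in 1, against 7.88%, 4.61% and 3.27% of all genes. Of the 14 probes, 7 passed, against 7.06% of all 41173 probes tested (4.36% higher, 2.71% lower). The median difference was 0.30 over the 10 genes and -0.0040 over all genes. With the replicate number, which follows the slide, as a replicate block, 5025 probes in place of 2908 passed, and 6 of the 10 genes.

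**Figure D1:**
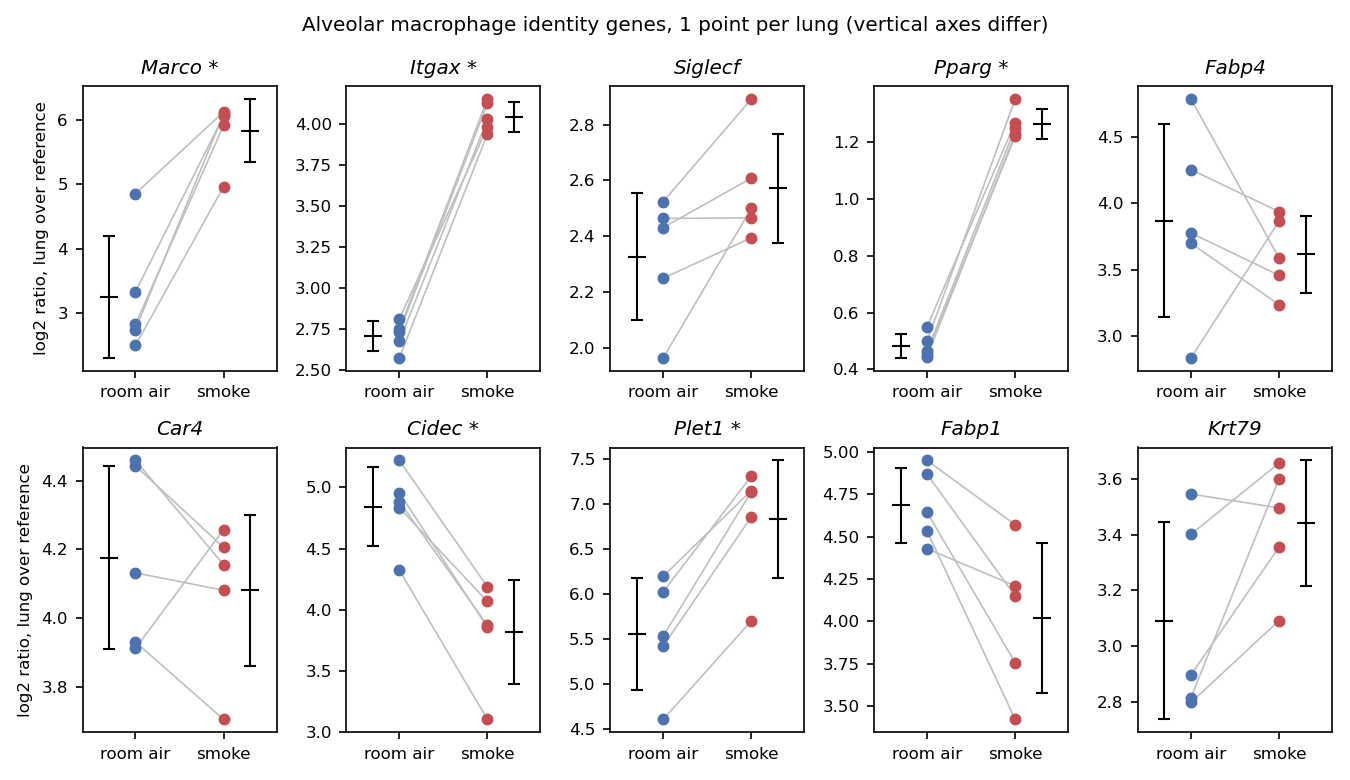
Log2 ratio of lung over reference for each identity gene, 1 point per lung, with room air in blue and smoke in red, and groups that do not overlap for Marco, Itgax, Pparg and Cidec. Grey lines join the arrays that share a slide, black bars give the mean and SD of 5 arrays, and an asterisk marks an adjusted p under 0.05.

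Marco, a class A scavenger receptor that binds particles and bacteria, had log2 ratios of 4.86, 2.82, 2.74, 2.49 and 3.32 in room air replicates 1 to 5 and of 6.13, 5.92, 6.10, 4.97 and 6.07 in smoke replicates 1 to 5. Room air replicate 1 was high and smoke replicate 4 low, and these 2 lay close together, but every smoke array was above every room air array. The means were 3.24 ± 0.95 and 5.84 ± 0.50 (SD, n = 5 each), a difference of 2.60 (SE 0.41, 95% confidence interval 1.70 to 3.49, limma adjusted p = 0.00248). Within slides the difference was 1.27, 3.11, 3.37, 2.48 and 2.75. Without room air replicate 1 the difference was 3.00 (limma adjusted p = 1.94e-05), and without smoke replicate 4 it was 2.81 (limma adjusted p = 0.00267).

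The 250 bases before the start of Marco lie at chr1:120505025-120505274 on the minus strand of GRCm38.p6 (sequence from RefSeq). They are shown because Marco had the largest difference of the 10 genes. Capitals mark a match to GAGGAA, a core recognised by the myeloid factor PU.1, beginning 146 bases before the start.
Marco: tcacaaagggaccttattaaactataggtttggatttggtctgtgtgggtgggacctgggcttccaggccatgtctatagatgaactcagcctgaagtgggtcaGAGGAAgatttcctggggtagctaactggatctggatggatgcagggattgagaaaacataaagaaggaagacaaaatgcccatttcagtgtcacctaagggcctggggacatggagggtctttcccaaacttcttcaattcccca

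In the separate channels Marco's red signal moved from a room air mean of 10.19 to a smoke mean of 13.71 on the log2 scale. The green signal was higher with smoke too, at 6.73 to 7.27 in room air and 7.56 to 8.67 in smoke. Smoke replicate 4 had the highest green value, 8.67, while its red value of 13.64 lay among those of the other smoke arrays. The green signal of Itgax was also higher, at 7.49 to 7.75 in room air and 8.11 to 8.51 in smoke. The part of the green signal in the ratios was not tested, but with red alone the differences were 3.54 for Marco and 2.04 for Itgax after quantile normalization, both larger than by ratio.

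**Figure D2:**
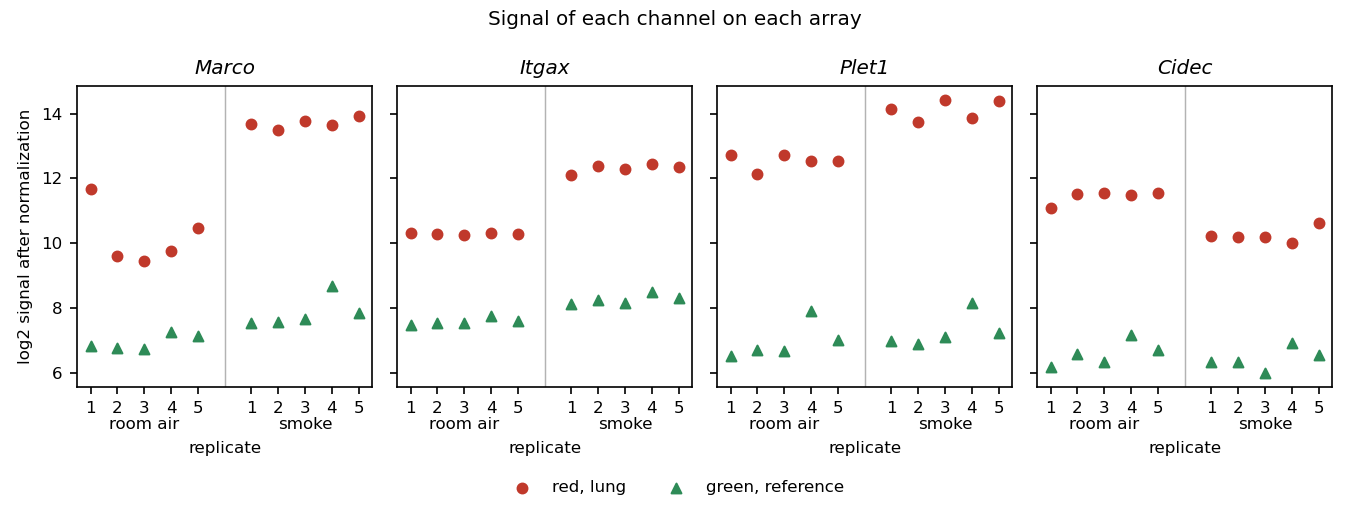
Normalized log2 signal of red (lung, circles) and green (reference, triangles) on each array for Marco, Itgax, Plet1 and Cidec. For Marco and Itgax both channels were higher on all smoke arrays than on all room air arrays, and replicate 4 had the highest green signal of its group for each of these 4 genes.

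Itgax encodes the integrin CD11c. Its brighter probe gave log2 ratios of 2.81, 2.75, 2.73, 2.57 and 2.67 in room air and 3.98, 4.15, 4.13, 3.94 and 4.03 in smoke. The groups lay far apart and no array stood out in either. Means of 2.71 ± 0.09 and 4.05 ± 0.09 (SD, n = 5 each) differed by 1.34 (SE 0.06, 95% confidence interval 1.21 to 1.47, limma adjusted p = 2.56e-07), a ratio 2.53-fold higher, with 1.17 to 1.41 within slides and 1.37 with either room air replicate 1 or smoke replicate 4 left out. The second Itgax probe also had groups that did not overlap but a smaller difference of 0.48 (SE 0.07, limma adjusted p = 0.0022). Both probes rose, and they disagreed in size.

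Siglecf, a sialic acid-binding lectin of alveolar macrophages and eosinophils, did not pass. Its log2 ratios spanned 1.96 to 2.52 in room air and 2.39 to 2.89 in smoke, so the groups overlapped. The difference was 0.25 (SE 0.12, 95% confidence interval -0.01 to 0.51, limma adjusted p = 0.312), above 0 on 5 of 5 slides. Without room air replicate 1 the difference of Siglecf was 0.16, and leaving out smoke replicate 4 gave 0.24. Its green signal was well above background on 0 of 10 arrays, and the difference was 0.72 with an offset of 0 and 0.03 by the scanner's own log ratio, so its size is uncertain.

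Pparg, the gene of PPAR-gamma, had log2 ratios of 0.50, 0.46, 0.46, 0.55 and 0.45 in room air and 1.35, 1.25, 1.22, 1.27 and 1.23 in smoke. Each group was narrow, and the lowest smoke value stood well above the highest room air value. The means of 0.48 ± 0.04 and 1.26 ± 0.05 (SD, n = 5 each) differed by 0.78 (SE 0.04, 95% confidence interval 0.68 to 0.88, limma adjusted p = 1.77e-06), a ratio 1.72-fold higher, with 0.72 to 0.85 within slides and 0.78 with either room air replicate 1 or smoke replicate 4 left out. Of the other PPAR genes, Ppara (-0.01, limma adjusted p = 0.981) and Ppard (-0.03, limma adjusted p = 0.893) did not pass, so 1 of 3 in the family rose.

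Cidec encodes a lipid droplet protein. Its log2 ratios were 4.88, 4.96, 5.22, 4.32 and 4.83 in room air and 3.87, 3.86, 4.19, 3.1 and 4.07 in smoke. Replicate 4 was lowest in both groups, and every smoke array was below every room air array. Cidec fell by 1.02 on the log2 scale, from 4.84 ± 0.33 to 3.82 ± 0.42 (SD, n = 5 each; SE 0.20, limma adjusted p = 0.0105), with -1.22 to -0.76 within slides. Cidec passed without any 1 array (limma adjusted p = 0.00559 to 0.0294), with a difference of -1.01 when that was room air replicate 1 and -0.85 when it was smoke replicate 4. The call was lost with the scanner's own log ratio (-0.36, limma adjusted p = 0.832), with no offset (limma adjusted p = 0.403) and with ratios scaled between arrays (limma adjusted p = 0.118).

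Fabp1, a fatty acid-binding protein best known from liver and intestine, had log2 ratios of 4.43, 4.53, 4.95, 4.64 and 4.87 in room air and 4.21, 3.42, 4.57, 3.75 and 4.15 in smoke. Smoke replicate 3 lay among the room air arrays and the other smoke arrays lay below them. The difference was -0.66 (SE 0.19, 95% confidence interval -1.08 to -0.25, limma adjusted p = 0.0628), and smoke was lower on 5 of 5 slides, with -1.11 to -0.22 within them. It passed with the replicate block (-0.66, limma adjusted p = 0.011), without room air replicate 1 (-0.73, limma adjusted p = 0.0446), without smoke replicate 3 (limma adjusted p = 0.0204) and with only probes well above background in red (limma adjusted p = 0.0443). Fabp1 did not pass in the other 18 of 22 alternatives, among them that without smoke replicate 4 (-0.60, limma adjusted p = 0.138). The difference was -0.03 with the scanner's own log ratio (limma adjusted p = 1.0) and -0.48 with ratios scaled between arrays (limma adjusted p = 0.4). Its green signal was well above background on 2 of 10 arrays.

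Fabp4, a fatty acid-binding protein shared with adipocytes and capillaries, ranged from 2.83 to 4.79 in room air and from 3.24 to 3.94 in smoke. Room air replicate 1 was the highest and room air replicate 5 the lowest of the 10 arrays. Its brightest probe differed by -0.25 (SE 0.30, 95% confidence interval -0.91 to 0.40, limma adjusted p = 0.78), and the other probes by -0.14 and -0.24, none past the threshold. Leaving out room air replicate 1 gave -0.02, leaving out room air replicate 5 gave -0.51 and leaving out smoke replicate 4 gave -0.16. On slide 5 smoke was higher by 1.03, and on the other 4 slides it was lower.

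The windows before the starts of Cidec and Fabp1 are shown because these lipid genes had differences of the opposite sign to Pparg. They lie at chr6:113435761-113436010 on the minus strand and at chr6:71199629-71199878 on the plus strand of GRCm38.p6 (RefSeq). Matches to GAGGAA, to CACGTG (an E-box), to TGACNNNGC (a core of the antioxidant response element) and to AGGTCA (a core of nuclear receptor elements) were sought on both strands, and capitals mark them. Cidec held none of the 4. Fabp1 held GAGGAA 45 bases before its start and AGGTCA on the minus strand at 67 and 9 bases before it, and TGACNNNGC at 9 overlapped the last of these.
Cidec: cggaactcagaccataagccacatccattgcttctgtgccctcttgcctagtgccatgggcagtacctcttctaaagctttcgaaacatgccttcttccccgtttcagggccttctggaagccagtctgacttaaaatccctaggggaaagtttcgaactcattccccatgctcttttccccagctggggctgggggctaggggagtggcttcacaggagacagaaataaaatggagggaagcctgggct
Fabp1: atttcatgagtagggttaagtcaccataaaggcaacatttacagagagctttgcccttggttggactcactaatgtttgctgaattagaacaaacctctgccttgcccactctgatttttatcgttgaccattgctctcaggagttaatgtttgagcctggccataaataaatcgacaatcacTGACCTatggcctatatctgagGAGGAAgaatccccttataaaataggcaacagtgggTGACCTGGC

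Of the 10 genes 9 had a window in the RefSeq table and 8 were searched. Over 32851 windows of 250 bases, 23.3% held GAGGAA, 6.02% CACGTG, 10.2% TGACNNNGC and 14.0% AGGTCA. Siglecf held GAGGAA on the minus strand, 65 bases before its start, and Itgax, Car4 and Krt79 held none of the 4. The window of Itgax was shorter, at 226 bases. A match describes letters in the window and is not a tested site.

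Plet1, a surface protein of epithelial progenitors and alveolar macrophages, had log2 ratios of 6.20, 5.43, 6.03, 4.61 and 5.54 in room air and 7.15, 6.86, 7.32, 5.71 and 7.14 in smoke. Replicate 4 was the lowest of both groups, and smoke replicate 4 lay among the room air arrays, so the groups overlapped. The means of 5.56 ± 0.62 and 6.84 ± 0.65 (SD, n = 5 each) differed by 1.28 (SE 0.34, 95% confidence interval 0.52 to 2.03, limma adjusted p = 0.0474), with 0.95 to 1.61 within slides. Its second probe differed by 0.97 (SE 0.24, limma adjusted p = 0.0305), with no overlap. The brighter probe no longer passed without room air replicate 2, 3, 4 or 5 (limma adjusted p = 0.0996, 0.0572, 0.0805 and 0.0877) or without smoke replicate 1, 2, 3 or 5 (limma adjusted p = 0.116, 0.0903, 0.111 and 0.117). It passed without room air replicate 1 (1.44, limma adjusted p = 0.0237) or smoke replicate 4 (1.56, limma adjusted p = 0.00791). With the replicate block both probes passed (limma adjusted p = 0.000179 and, for the second, 0.000513). The brighter probe also passed with red alone by quantiles (1.55, limma adjusted p = 0.000187) or at the 75th percentile (1.67, limma adjusted p = 0.000483). The call was also lost with an offset of 0 (1.06, limma adjusted p = 0.321), with the scanner's own log ratio (0.96, limma adjusted p = 0.413), with median centring (1.19, limma adjusted p = 0.0762) and without both replicate 1 arrays (1.36, limma adjusted p = 0.0625), the last chosen after seeing the data. Its red signal did not overlap, at 12.13 to 12.73 in room air and 13.75 to 14.43 in smoke, and replicate 4 had the highest green signal in both groups, 7.91 and 8.15.

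The window before Plet1 is shown as that of a second gene that rose, at chr9:50494275-50494524 on the plus strand of GRCm38.p6 (RefSeq). Capitals mark AGGTCA on the minus strand, 62 bases before the start.
Plet1: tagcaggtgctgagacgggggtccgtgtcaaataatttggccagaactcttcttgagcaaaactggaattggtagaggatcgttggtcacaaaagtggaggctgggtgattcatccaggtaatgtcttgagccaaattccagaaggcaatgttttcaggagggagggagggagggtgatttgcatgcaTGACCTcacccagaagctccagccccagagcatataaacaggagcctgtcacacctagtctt

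Car4, a membrane carbonic anhydrase, spanned 3.91 to 4.46 in room air and 3.70 to 4.26 in smoke. The groups overlapped, and its difference was -0.09 (SE 0.14, 95% confidence interval -0.39 to 0.20, limma adjusted p = 0.832). Leaving out room air replicate 1 gave -0.02 and leaving out smoke replicate 4 gave -0.0002, and ratios scaled between arrays turned the sign, to 0.10. Krt79, a keratin, spanned 2.80 to 3.55 and 3.09 to 3.66, with a difference of 0.35 (SE 0.16, 95% confidence interval -0.01 to 0.71, limma adjusted p = 0.291) that was above 0 on 4 of 5 slides, and it was 0.28 and 0.44 when the same arrays were left out in turn.

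**Figure D3:**
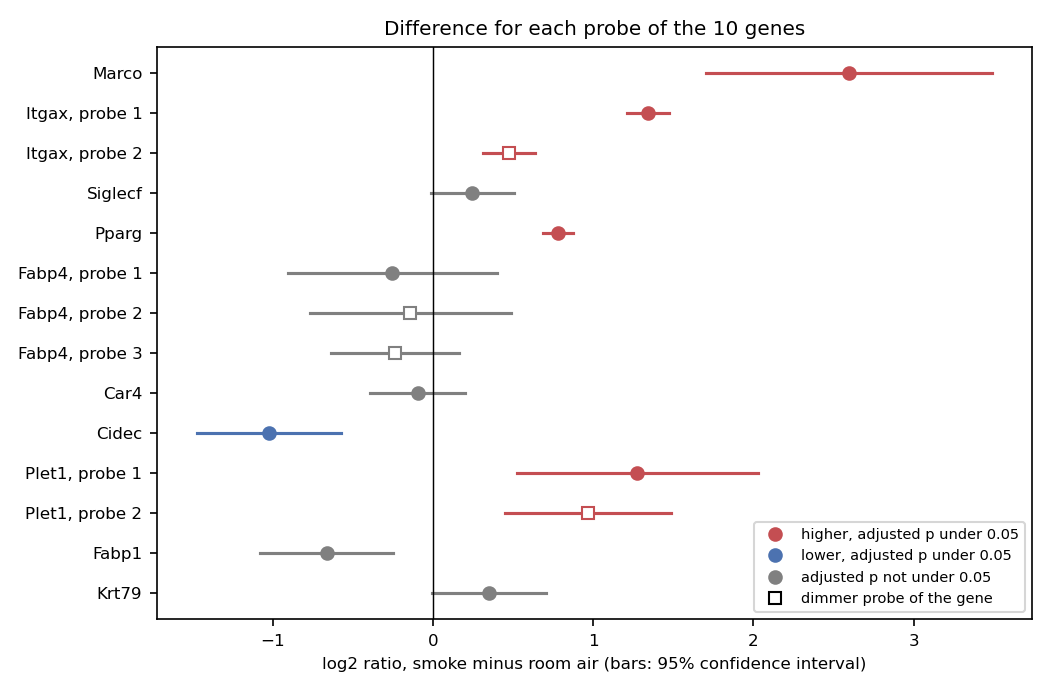
Difference in log2 ratio, smoke minus room air, for all 14 probes of the 10 genes, with 95% confidence intervals, in red and blue for probes past an adjusted p of 0.05 and with open squares for dimmer probes. The 3 Fabp4 probes all span 0, and both Itgax and both Plet1 probes lie above it.

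The responses of genes within each of the 3 role groups were compared in 12 pairs. Over these, the difference between the responses of the genes passed in 10 by an exact two-sided permutation test over the 252 splits of the arrays, adjusted over the pairs. That test takes no account of slides. In an exact test with the replicate block, on the signs of the 5 within-slide values, 0 of 12 passed, and its smallest p, 0.0625, is above the threshold. Of the 12, 5 hold Siglecf or Fabp1, whose green signal was near background on most arrays, and nothing is read from those. The other 7 pairs passed over the splits, and 5 of the 7 had the same sign on all slides. Marco's difference was larger than that of Itgax's brighter probe by 1.26 (adjusted exact p = 0.0476), with 0.10 on slide 1 and 1.11 to 1.97 on the other slides. The Itgax probes themselves gave 1.34 and 0.48, so the size of this gap holds only for the probes used. Pparg differed from Cidec by 1.81 (adjusted exact p = 0.0238) and from Fabp4 by 1.03 (adjusted exact p = 0.0357), and Fabp4 from Cidec by 0.77 (adjusted exact p = 0.0476). Both Fabp4 pairs changed sign between slides: Pparg against Fabp4 was -0.25 on slide 5 and Fabp4 against Cidec -0.19 on slide 1. Car4 differed from Plet1 by -1.37 (adjusted exact p = 0.0238) and from Krt79 by -0.44 (adjusted exact p = 0.0357). No pair passed with an offset of 0, with the scanner's own log ratio or without both replicate 4 arrays, the last chosen after seeing the data. Leaving out 1 array gave 4 to 10 pairs, with 10 when that was room air replicate 1 and 6 when it was smoke replicate 4.

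Among 13634 named genes well above background in red on 10 arrays, the profile most like Marco's was that of Wfdc21 (root mean square difference 0.27 log2 units over 10 arrays), followed by the chemokine gene Ccl9 (0.31) and the lectin gene Clec5a (0.40). Itgax was closest to Tbc1d2 (0.10), Trim29 (0.10) and Itgb2 (0.11), the last encoding the beta chain that pairs with CD11c. Pparg was closest to Slc46a3 (0.06), Bmf (0.06) and Car5b (0.08). Cidec was closest to Ncald (0.13), Gja5 (0.21) and Bex2 (0.21), and Gja5 itself did not pass (-0.66, limma adjusted p = 0.0824). Plet1 was closest to Calca (0.30), Clec4n (0.34) and Marchf1 (0.39). The distance spans both groups, so genes with a difference of similar size come out near. Tbc1d2 (1.34), Trim29 (1.40) and Itgb2 (1.28) differed by much the same as Itgax (1.34). Shared regulation or a shared cell source was not tested.

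Other genes of alveolar macrophages moved mostly upward. Of 17 measured, 14 rose and 0 fell, with a median difference of 0.84. All 17 were well above background in red on 10 arrays, and 7.77% of all such genes rose. This list and those below were chosen with earlier results of these data known, so their counts are not independent support. Ctsk, a cysteine protease, rose by 2.80, the chitinase-like gene Chil3 by 2.12, Trim29 by 1.40 and the proton pump subunit Atp6v0d2 by 1.36. Ear1 (0.01), Nceh1 (0.19) and Slc7a2 (0.44) did not pass. Room air replicate 1, high for Marco, was near its group in the mean of this list (0.02 above the room air mean).

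Of 16 genes listed for the GM-CSF and TGF-beta circuit upstream of Pparg, 7 rose and 0 fell, with a median of 0.43. The place of each gene relative to Pparg was not tested. In the mean of this list room air replicate 1 stood apart, at 0.40 above the room air mean. The other room air arrays were at -0.11 to -0.08, and the smoke arrays were at 0.46 to 0.60. The GM-CSF receptor beta genes Csf2rb (1.43) and Csf2rb2 (1.37), Egr2 (1.10) and Bhlhe41 (0.91) rose most. Bhlhe41 is also counted among the other alveolar macrophage genes. The ligand gene Csf2 (0.84, limma adjusted p = 0.394), Tgfb1 (0.30, limma adjusted p = 0.0601) and Smad3 (0.0030, limma adjusted p = 0.993) did not pass. With the replicate block Tgfb1 passed (limma adjusted p = 0.0116).

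Among 12 other PPAR-gamma target and lipid genes, 5 rose and 2 fell, with a median of 0.09. Lpl (0.95), Abcg1 (0.84) and the lipid droplet gene Plin2 (0.80) rose. Lpl and Abcg1 are also counted among the other alveolar macrophage genes. The lipoprotein lipase inhibitor Angptl4 (-0.66, limma adjusted p = 0.0239) and the fatty acid transporter Cd36 (-0.51, limma adjusted p = 0.00168) fell. Angptl4 no longer passed without room air replicate 2 or without smoke replicate 2, 3 or 5 (limma adjusted p = 0.0578, 0.0589, 0.0594 and 0.0581). It also did not pass with an offset of 0 (limma adjusted p = 0.062), the scanner's own log ratio (limma adjusted p = 0.0705), red alone at the 75th percentile (limma adjusted p = 0.0789) or without both replicate 4 arrays (limma adjusted p = 0.0799). Cd36 no longer passed with ratios scaled between arrays (limma adjusted p = 0.383). With the replicate block 5 rose and 3 fell, the third being the lipase gene Lipe (-0.29, limma adjusted p = 0.0114).

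**Figure D4:**
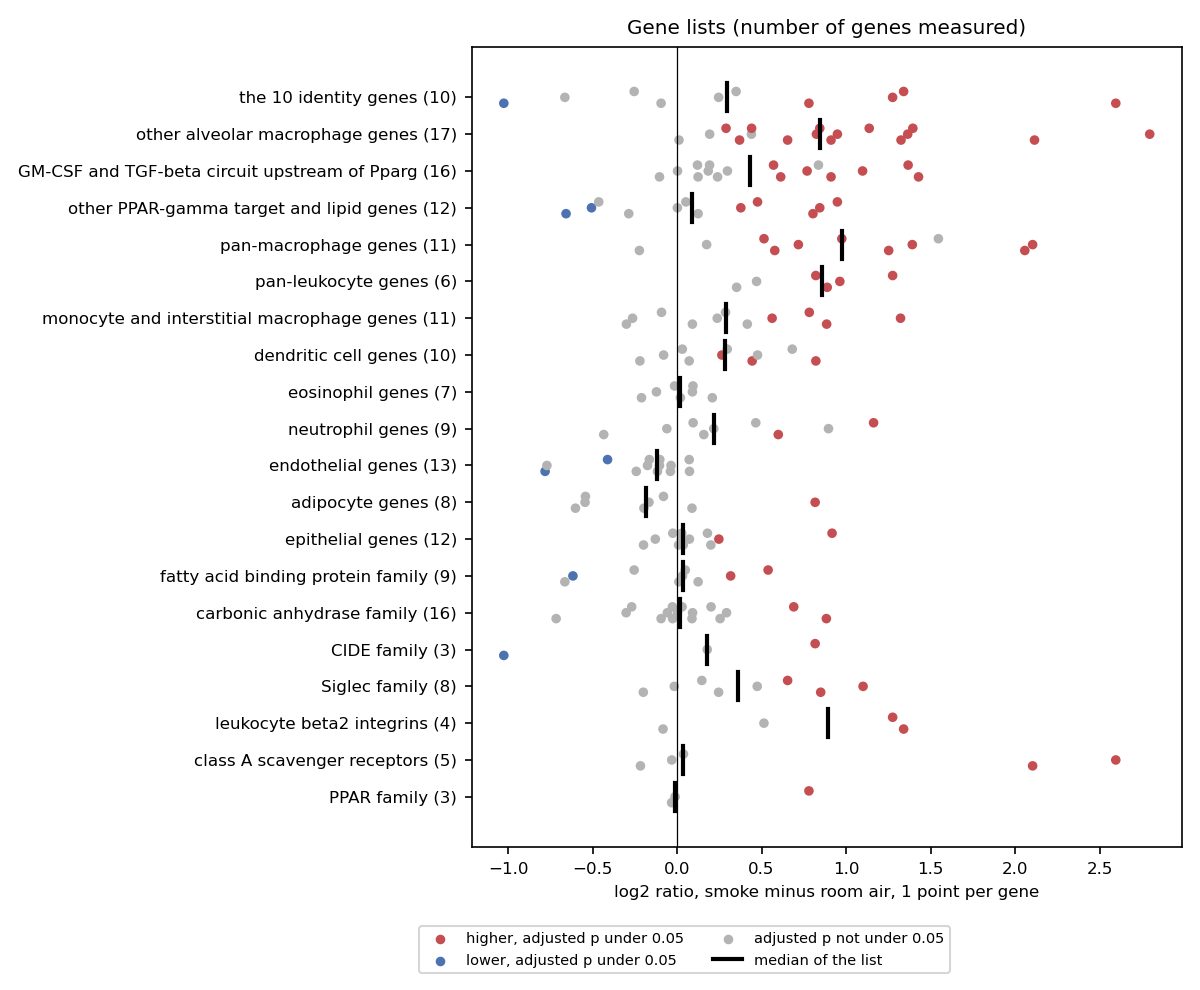
Difference in log2 ratio, smoke minus room air, for each measured gene of each list, with the median of the list as a black bar and genes that passed in red (higher) or blue (lower). The medians of the pan-macrophage list (0.97) and of the other alveolar macrophage list (0.84) are shown beside those of the eosinophil (0.02) and endothelial (-0.12) lists, with no test between lists.

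Genes shared by macrophages or by leukocytes rose as well. Of 11 pan-macrophage genes 8 rose and 0 fell, with a median of 0.97, among them Msr1 (2.10), Cd68 (2.06) and Adgre1 (1.39). Cd14 (1.55, limma adjusted p = 0.22), Lyz2 (0.18, limma adjusted p = 0.706), the brightest of the list in red, and Mertk did not pass. Of 6 pan-leukocyte genes, Itgb2 (1.28), Tyrobp (0.96), Lcp1 (0.89) and Cd53 (0.82) rose, and Coro1a (0.47) and Ptprc (0.35) did not pass. With the replicate block Coro1a and Ptprc passed as higher (limma adjusted p = 0.0116 and 0.0285) and the macrophage gene Mertk as lower (-0.22, limma adjusted p = 0.0352). Their parts in the rise of Marco, Itgax, Pparg and Plet1 were not tested. Averaged over the pan-macrophage list, room air replicate 1 was 0.44 above the room air mean, the other room air arrays were at -0.14 to -0.07, and the smoke arrays were at 0.98 to 1.06.

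Markers of the other cells that express some of the identity genes follow, with no test between lists. Of 11 monocyte and interstitial macrophage genes 4 rose and 0 fell (median 0.29), the complement genes C1qb (1.32), C1qa (0.78) and C1qc (0.56) and the chemokine receptor gene Cx3cr1 (0.89). All 4 lost the call with an offset of 0 (limma adjusted p = 0.109, 0.507, 0.23 and 0.397, in the order named) and with the scanner's own log ratio (limma adjusted p = 0.139, 0.669, 0.218 and 0.694), where C1qa was at 0.19. Over 23 alternatives the difference of C1qb stayed at 1.16 to 1.83. That of C1qa spanned 0.19 to 1.95, that of C1qc 0.28 to 1.87 and that of Cx3cr1 0.43 to 1.44. With the replicate block 5 of these 11 rose and 1 fell, Folr2 (limma adjusted p = 0.0362) and Nr4a1 (limma adjusted p = 0.0121) being added. Of 10 dendritic cell genes 3 rose and 0 fell (median 0.28): Itgae (0.82), an integrin of a dendritic cell subset, Ccr7 (0.44) and Flt3 (0.27). Ccr7 no longer passed without room air replicate 2, 3 or 4 (limma adjusted p = 0.0895, 0.0782 and 0.0657) or smoke replicate 1, 2, 3 or 5 (limma adjusted p = 0.104, 0.088, 0.097 and 0.0606), and neither it nor Flt3 passed with the scanner's own log ratio (limma adjusted p = 0.239 and 0.367) or median centring (limma adjusted p = 0.18 and 0.0802). Flt3 also did not pass with red alone by quantiles (limma adjusted p = 0.238). In all, Flt3 lost the call in 6 of 23 alternatives, where the limma adjusted p reached 0.447. With the block 5 dendritic cell genes rose and 1 fell: Batf3 (limma adjusted p = 0.026) and Irf4 (limma adjusted p = 0.0173) were added as higher and Zbtb46 (limma adjusted p = 0.0422) as lower. None of 7 eosinophil genes passed by limma (median 0.02): Epx (0.09), Prg2 (0.09), Prg3 (-0.01), Ccr3 (-0.21), Il5ra (0.02), Ear6 (0.21) and Alox15 (-0.12). Among their defining genes Il5ra was well above background in red on 0, Prg3 on 1 and Epx on 2 of 10 arrays. Of 10 neutrophil genes 9 were measured, and Mmp8 (1.16) and Camp (0.60) rose and 0 fell, with a median of 0.22. S100a8 (0.47), S100a9 (0.16), Csf3r (0.22), Cxcr2 (0.10), Ltf, Ngp (-0.06) and Retnlg (-0.43) did not pass. The block added Ltf (0.90, limma adjusted p = 0.0307) as higher. Mmp8 no longer passed without room air replicate 2, 3 or 5 (limma adjusted p = 0.0547, 0.055 and 0.0523) or smoke replicate 1 (limma adjusted p = 0.0562), nor with the scanner's own log ratio (limma adjusted p = 0.0788), and Camp did not with red alone at the 75th percentile (limma adjusted p = 0.0756). Both were well above background in green on 0 of 10 arrays, so the sizes of their differences are uncertain. In the mean of the neutrophil list room air replicate 1, which was also high for Marco, stood 1.06 above its group, and smoke replicate 1 was the highest smoke array at 0.61.

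Of 13 endothelial genes 0 rose and 2 fell, Ednrb (-0.78) and Pecam1 (-0.41, limma adjusted p = 0.0488), with a median of -0.12. Pecam1 no longer passed without room air replicate 2, 3 or 5 (limma adjusted p = 0.0761, 0.0911 and 0.102) or smoke replicate 1, 2, 4 or 5 (limma adjusted p = 0.0864, 0.0869, 0.106 and 0.119). Both genes lost the call with an offset of 0 (limma adjusted p = 0.209 for Ednrb and 0.211 for Pecam1), with the scanner's own log ratio (limma adjusted p = 0.307 and 0.129) and with ratios scaled between arrays (limma adjusted p = 0.0688 and 0.31). By the fit with the replicate block 4 fell, with Tek (-0.24, limma adjusted p = 0.0159) and Aplnr (-0.77, limma adjusted p = 0.00211) added. Smoke replicate 4 was lowest both in the mean of this list, at -0.59 from the room air mean, and for Car4. It was also the lowest smoke array in the means of the epithelial (-0.10), adipocyte (-0.38) and dendritic cell (0.15) lists. The shared low is therefore not particular to endothelial genes. Of 8 adipocyte genes Cidea rose (0.82, limma adjusted p = 0.0484) and 0 fell, with a median of -0.18, and Adipoq (-0.54), Plin1 (-0.54), Retn (-0.60), Cfd (-0.20), Plin4 (-0.17), Lep (-0.08) and Ucp1 (0.09) did not pass, and Ucp1 was well above background in red on 0 and Lep on 2 of 10 arrays. The mean of the adipocyte list was 0.51, -0.14, 0.29, -0.16 and -0.51 from the room air mean in room air replicates 1 to 5, high in replicates 1 and 3 and lowest in replicate 5 like Fabp4. In smoke replicates 1 to 5 it was -0.14, -0.22, 0.04, -0.38 and -0.07. The part of these cells in the values of Fabp4, Cidec and Car4 was not tested. Of 12 epithelial genes Krt15 (0.92) and Krt8 (0.25) rose and 0 fell, with a median of 0.03. Krt8 no longer passed without room air replicate 2, 4 or 5 (limma adjusted p = 0.0742, 0.0697 and 0.0679) or smoke replicate 1, 2 or 3 (limma adjusted p = 0.0642, 0.0577 and 0.0791), nor with red alone by quantiles (limma adjusted p = 0.112). In all, Krt8 lost the call in 14 of 23 alternatives, where the limma adjusted p reached 0.542. The block added Krt18 (0.18, limma adjusted p = 0.0454) as higher.

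**Figure D5:**
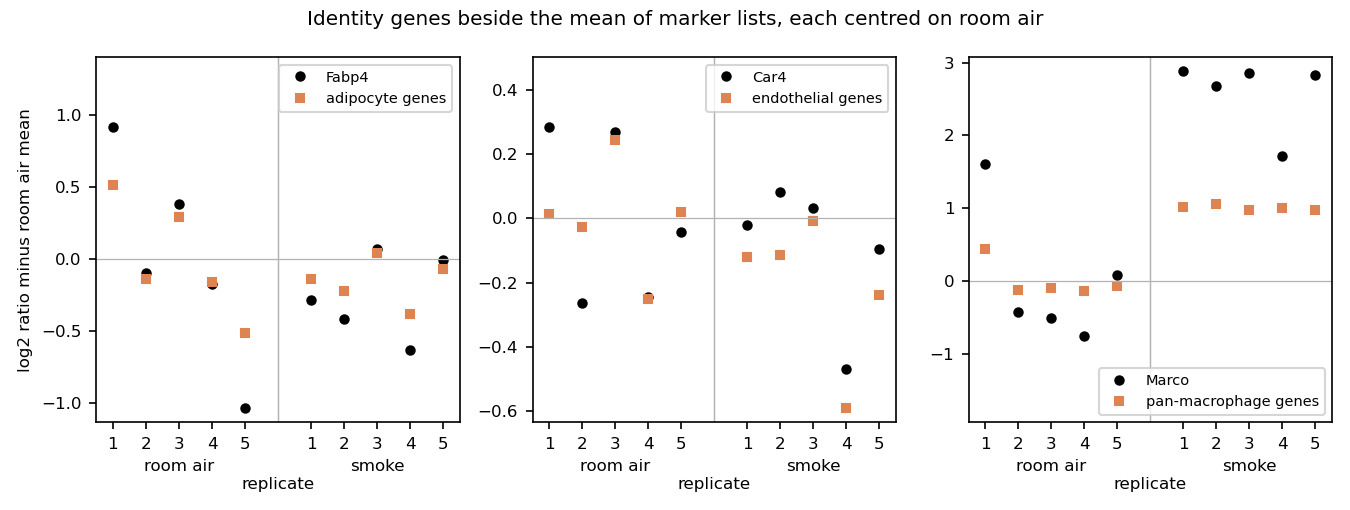
Log2 ratio of Fabp4, Car4 and Marco on each array (circles) beside the mean of the adipocyte, endothelial and pan-macrophage lists (squares), each as the distance from its room air mean. Fabp4 and the adipocyte list are both highest in room air replicate 1 and lowest in room air replicate 5. Car4 and the endothelial list are both lowest in smoke replicate 4, which is also the lowest smoke array in the adipocyte list.

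Close relatives of the identity genes did not all follow them. Of 5 class A scavenger receptors Marco and Msr1 rose, while Colec12 (0.04), Scara3 (-0.22) and Scara5 (-0.03) did not pass (median 0.04). Of 4 measured leukocyte integrin genes Itgax and Itgb2 rose, and Itgam (0.51) and Itgal (-0.08) did not pass (median 0.89). Of 8 measured Siglec genes Cd33 (1.10), Cd22 (0.85) and Siglec1 (0.65) rose, and Siglecf, Mag (0.47), Siglecg (0.15), Siglech (-0.20) and Siglece (-0.02) did not (median 0.36). Siglece was well above background in red on 0 of 10 arrays. Neither Cd33 nor Cd22 passed with an offset of 0 (limma adjusted p = 0.0713 and 0.492), and none of the 3 that rose passed with the scanner's own log ratio (limma adjusted p = 0.219, 0.812 and, for Siglec1, 0.234). With the replicate block Itgam (limma adjusted p = 0.0313) and Mag (limma adjusted p = 0.00307) passed as higher and Siglech (limma adjusted p = 0.0235) as lower.

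Of 9 fatty acid-binding protein genes Fabp12 (0.54) and Fabp7 (0.32) rose, Fabp3 fell (-0.62), and 6 did not pass (median 0.03). Besides Fabp1 and Fabp4 these were Fabp2 (0.03), Fabp5 (0.12), Fabp6 (0.01) and Fabp9 (0.05). Red signal of Fabp6 and Fabp9 passed the background filter on 0 of 10 arrays, and green signal of Fabp5 on 0, so little can be read from their values. Fabp12 did not pass with an offset of 0 (limma adjusted p = 0.442), the scanner's own log ratio (limma adjusted p = 0.686) or median centring (limma adjusted p = 0.0659). Fabp7 no longer passed without room air replicate 3 (limma adjusted p = 0.0503) or smoke replicate 5 (limma adjusted p = 0.053). Of 16 carbonic anhydrase genes Car13 (0.88) and the mitochondrial Car5b (0.69) rose and 0 fell, with a median of 0.02. Car13 did not pass with red alone at the 75th percentile (limma adjusted p = 0.0719). By the fit with the replicate block 3 rose and 2 fell: Car6 (limma adjusted p = 0.0263) was added as higher, and Car2 (limma adjusted p = 0.0184) and Car14 (limma adjusted p = 0.0173) as lower. In the CIDE family, whose proteins sit on lipid droplets, Cidea rose while Cidec fell, and Cideb (0.18) did not pass (median 0.18). The rise of Cidea passed without 1 array only when that array was room air replicate 1 (limma adjusted p = 0.00351), and was at 0.0519 to 0.118 without any other. It did not pass with an offset of 0 (limma adjusted p = 0.203) or the scanner's own log ratio (limma adjusted p = 0.426).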

How the data were processed

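Total RNA of 10 lungs, 5 per group, was hybridised by the authors to Agilent arrays. Per the file headers the scanner files hold spot intensity in red and green from Feature Extraction 9.5.3.1 (9.1 in the submitters' processing notes), with the scanner's log10 ratio. A value table deposited by the authors is log2, the mean of both channels after subtraction of the background median, with array medians of 7.34 to 8.06. Its centring across arrays and the reason for the exchanged groups are not given in the sources used here.

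Intensities were corrected by normexp (offset 50) and loess within arrays in limma 3.58.1 (R 4.3.3), without control spots or spots marked as outliers by the scanner. Spots of a probe were averaged. Red was well above background for 67.8% to 76.7% of spots in room air and 64.9% to 77.5% in smoke. Probes were named through RefSeq: 22951 by accession, 6659 by current symbol, 3109 by synonym and 8455 by the name in the files. A gene is given by its probe with the brightest red signal. Smoke was compared with room air by lmFit and eBayes, two-sided, with Benjamini-Hochberg adjustment over 41173 probes. The methods name a Wilcoxon test, which was run as an alternative. Channel values were taken after loess and Aquantile normalization. Pairs and figures used scipy 1.17.1 and matplotlib 3.10.9.

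Each of 5 slides held 1 array of each group, with smoke in place 1 and room air in place 2, so place and group cannot be told apart. Slides were scanned on 4 days. The replicate number of the labels follows the slide. Deviations from the group means correlated over probes at 0.157, 0.461, 0.46, 0.55 and 0.415 within replicate numbers 1 to 5, against a median of -0.123 and a highest value of 0.205 between different numbers, so the numbers pair the samples. The replicate block left the difference of Marco at 2.60, with a limma adjusted p of 0.000732. With it the SE of Plet1 went from 0.34 to 0.09 and that of Cidec from 0.20 to 0.07, while that of Pparg stayed at 0.04.

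The genes, and the 23 lists, were chosen with earlier results of these data known. The lists count the identity genes and their 3 role groups beside those of macrophage, other cell type and family genes. Some genes stand in several lists, so the lists are not independent of each other. Every gene of a list of up to 9 genes, counting those without a probe, is named, and of longer lists up to 4 genes with the largest change past the threshold, with 3 most alike genes for each identity gene that passed. Genes named outside that rule, such as Ear1, Nceh1, Slc7a2, Csf2, Tgfb1, Smad3, Cd36 and the genes whose call changed with the block, were chosen after their values were seen. Ear2, Ly6c2, Ly6g, Siglec15 and Itgad had no probe under those names. The alternatives varied the offset, the normalization, the channel, the filter on dim probes, the test, the block, the choice of probe, the authors' table and the arrays used.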

Additional observations from a re-analysis of the deposited data

Results flagged for a closer look

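In groups of 5 arrays, the gap between the most extreme array and its neighbour, divided by the range, was set against Dixon's critical value of 0.71. It was passed in 15 of 144 groups, 2 of them among the 28 groups of the identity genes' probes. The other groups were those of list genes that had passed the test of smoke against room air. Chance alone gives about 1 in 20, and the effect of that choice of genes on the count was not tested.

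Among the identity genes, smoke replicate 4 was low for Marco (4.97 against 5.92 to 6.13, gap share 0.821) and for Plet1 (5.71 against 6.86 to 7.32, gap share 0.718). It was also low for Ctsk (0.745).

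Room air replicate 1 was high for 5 list genes: Csf2rb (0.801), Csf2rb2 (0.829), Lcp1 (0.724), Mmp8 (0.885) and Car13 (0.729). Room air replicate 4 was low for Siglec1 (0.719) and Cd22 (0.773). Smoke replicate 3 was high for Mrc1 (0.835) and Flt3 (0.785) and low for Car5b (0.738). Smoke replicate 5 was high for Egr2 (0.8) and low for Acsl1 (0.824).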

How the results depend on the processing

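The 25 alternatives include 2 chosen after seeing the data, without both replicate 1 and without both replicate 4 arrays. Marco and Itgax kept direction and call in 23 of 25 and passed in the opposite direction in 1, the authors' table as labelled. Pparg kept both in 22, Cidec in 19 and Plet1 in 10, and Fabp1 passed in 4 of 22. Siglecf, Fabp4, Car4 and Krt79 passed in 0.

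The 2908 probes that passed became 1665 with an offset of 0, 1434 with median centring, 1759 with red alone at the 75th percentile, 5025 with the replicate block, and 16 with the authors' table as labelled or with groups exchanged. Of those that passed, 61.7% were higher, against 73.2% with an offset of 0 and 47.9% with median centring. Leaving out 1 array gave 2097 to 3665. The exact Wilcoxon test passed 0 probes, 0 identity genes and 0 list genes after adjustment (5448 probes at an unadjusted p under 0.05), and its smallest p is 0.00794.

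The 5 identity genes that passed became 3 with an offset of 0 or the scanner's log ratio, 2 with the authors' table either way, and 4 to 6 without 1 array. The replicate block changed no call of an identity gene but that of Fabp1. The 10 pairs became 0 with an offset of 0, with the scanner's log ratio and without both replicate 4 arrays, and 4 to 10 without 1 array. With the replicate block 0 pairs passed, 0 of them before adjustment, by an exact test within slides whose smallest p is 0.0625. Pairs were not run with the Wilcoxon test, and not all could be computed from the authors' table. Of 164 other genes in the gene lists, 58 passed (53 higher), 78 with the replicate block (64 higher), and 51 to 72 without 1 array. They were not run on the authors' table. Over 1330 combinations of these 58 genes with the other alternatives, up to 23 a gene, 1141 kept direction and call, 189 lost the call and 0 turned.

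The authors' table as labelled turned Marco (-2.58), Itgax (-1.49), Pparg (-0.42), Fabp4 (0.13), Car4 (0.23), Cidec (0.91), Plet1 (-1.08) and Krt79 (-0.31), by its exchanged groups. Ratios scaled between arrays turned Car4 (0.10). The cause of the other changes was not tested. Green signal near background limits the ratios of Siglecf, Fabp1 and 4 of the 58 list genes that passed, among them Mmp8, Camp and Fabp12.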
